A study of Mus musculus with 14 samples.

Results

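Named processed pseudogenes and the genes they were copied from are described here in mouse hearts. A processed pseudogene, called a copy below, carries in GENCODE M21 the symbol of its source gene followed by -ps or by -ps and a number. Of 54532 genes in the count files, 1556 had such a symbol. Of these, 224 were chosen by their counts, with 10 or more counts in at least 4 of the 14 files. The parent was taken as the gene with the same symbol without the -ps ending. It was found for 206 of the 224 copies, which share 99 parents, and the other 18 copies had no gene of that symbol. The label does not hold for every one of the 224. GENCODE listed 208 as processed or transcribed processed pseudogenes, 9 as unprocessed or transcribed unprocessed pseudogenes, 5 as protein-coding genes (*Rpl10-ps3*, *Rpl36a-ps1*, *Rpl9-ps6*, *Nutf2-ps1* and *Rps12-ps3*) and 2 as other transcripts (*Tmem250-ps* and *Ndufb1-ps*).

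Processed pseudogenes arise when the enzymes of LINE-1 elements copy a spliced messenger RNA into DNA and insert it elsewhere in the genome. They carry no introns and usually no promoter of their own. Genes with short and abundant messengers, above all those of cytosolic ribosomal proteins, have left many copies, and young copies can still match their parent over a whole sequencing read. A read from such a stretch can be assigned to the parent, to a copy or to neither, depending on how reads with several matches are treated.

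C57BL/6 mouse hearts were made into 14 Lexogen QuantSeq libraries, which count the 3′ ends of messengers and were sequenced as single-end reads of 86 bases. Groups follow the labels, with 4 libraries of WT, 4 of YG8, and 3 female and 3 male KIKO-700 libraries. YG8 stands here for the longer name that the labels give the line, whose mice are homozygous for a constitutive null allele of the targeted gene and carry a human transgene of that gene with an expanded repeat. KIKO-700 mice carry 1 deleted allele of the same gene and 1 allele with an expanded repeat, and the WT hearts of their cohort were not analysed here. The labels give 180 days after birth as the age of all mice, whereas the study's text gives another age. The study's text describes the YG8 and WT mice as males. *Xist* and Y-linked genes marked WT 3, YG8 2 and YG8 4 as male and the other 5 of these 8 libraries as female, the labels give no sex for these 8, and the sex markers of all 6 KIKO-700 libraries followed their labels. Each direction below is that of the labels.

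Totals ranged from 5226233 to 11650840 counts per library. Markers of ventricular cardiomyocytes were counted in every library. Their sum was 13220 and 15801 CPM (counts scaled to a common library total) in WT 3 and WT 2 and between 20419 and 27458 CPM in the other 6 libraries of that experiment, and 3 of the 5 markers were lower in both WT 2 and WT 3 than in each of the other 6. Among markers of atrial cardiomyocytes, fibroblasts, endothelial cells, blood and macrophages, no gene was lower in both. The atrial sum was 112 and 82.7 CPM in YG8 1 and YG8 4 and between 544 and 1419 CPM in the other 6 libraries. The macrophage sum was 73.9 to 94.3 CPM in YG8 and 123 to 170 CPM in WT, though of its markers only *Csf1r* singly separated the groups. The part of these differences in the results was not tested. In bulk hearts, fewer cells of a type and less RNA per cell cannot be told apart.

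Bases from the end of the coding sequence of 5 pairs are printed to show how alike copy and parent are there. In *Rps13* and *Apoo* the stretch stops at bases 541 and 631, before the coding ends at 544 and 634, because the annotated copy ends there. After the aligned stretch the parent transcript ran on for 267 bases in *Rps23*, 238 in *Fabp3*, 153 in *Apoo*, 48 in *Rps13* and 39 in *Rps19*. Sequences come from the GENCODE M21 transcripts on GRCm38 and run 5′ to 3′ on the transcript strand. Capitals mark bases that differ between the 2 members of a pair. *Rps23-ps2* (chromosome 8, 3583799 to 3584230, minus strand) was the copy with the highest mean level, *Rps13-ps2* (chromosome 7, 88530446 to 88530898, minus strand) stood far above its parent, *Apoo-ps* (chromosome 13, 107414144 to 107414729, minus strand) had the smallest p in YG8 against WT, *Fabp3-ps1* (chromosome 10, 86731987 to 86732388, minus strand) was close to 0 in some WT libraries, and *Rps19-ps2* (chromosome 14, 52902793 to 52903230, plus strand) was lower in KIKO-700 males.
Rps23-ps2: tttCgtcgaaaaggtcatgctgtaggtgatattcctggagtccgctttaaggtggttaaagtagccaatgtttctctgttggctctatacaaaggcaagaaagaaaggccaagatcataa
Rps23: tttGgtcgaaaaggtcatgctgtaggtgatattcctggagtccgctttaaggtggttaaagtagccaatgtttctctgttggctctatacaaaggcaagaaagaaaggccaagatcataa
Rps13-ps2: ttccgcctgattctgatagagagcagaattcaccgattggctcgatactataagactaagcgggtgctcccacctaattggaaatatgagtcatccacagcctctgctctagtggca
Rps13: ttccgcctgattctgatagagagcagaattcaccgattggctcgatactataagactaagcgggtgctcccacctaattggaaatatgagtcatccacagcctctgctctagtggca
Apoo-ps: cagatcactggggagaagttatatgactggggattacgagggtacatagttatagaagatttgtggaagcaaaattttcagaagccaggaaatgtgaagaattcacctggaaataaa
Apoo: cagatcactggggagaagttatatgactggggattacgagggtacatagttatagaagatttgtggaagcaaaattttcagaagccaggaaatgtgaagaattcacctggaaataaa
Fabp3-ps1: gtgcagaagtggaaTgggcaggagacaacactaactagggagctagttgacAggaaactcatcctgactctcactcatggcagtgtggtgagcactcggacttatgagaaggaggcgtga
Fabp3: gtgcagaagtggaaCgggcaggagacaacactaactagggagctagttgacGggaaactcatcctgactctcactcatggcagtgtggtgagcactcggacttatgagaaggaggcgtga
Rps19-ps2: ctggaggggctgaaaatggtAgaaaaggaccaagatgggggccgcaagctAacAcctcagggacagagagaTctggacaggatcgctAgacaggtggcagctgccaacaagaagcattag
Rps19: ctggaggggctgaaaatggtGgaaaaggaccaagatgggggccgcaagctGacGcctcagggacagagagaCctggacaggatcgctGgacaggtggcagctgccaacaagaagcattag
In these stretches *Rps13-ps2* and *Apoo-ps* had no base that differed from the parent, *Rps23-ps2* had 1, *Fabp3-ps1* had 2 and *Rps19-ps2* had 5.

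The likeness held for most copies. Over 204 copies that aligned with their parent over the larger part of their length, the median identity was 98.7% (lowest 79.0%, highest 100%), and the median length of the annotated copy was 467.5 bases. *Rpl18-ps1* aligned with *Rpl18* over 11 bases and *Gpr137b-ps* with *Gpr137b* over 22.4% of its length, and both were left out of these values. Of the 204, 20 were identical to the parent over the aligned bases. Of all 224 copies, 35 shared every stretch of 86 bases with some other gene, and 20 shared none. The aligned part ended a median of 56 bases before the end of the parent transcript. It reached the very end in some pairs, *Rpl10-ps3* and *Rps26-ps1* among them, where 0 bases followed.

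Copies were mostly counted below their parents, but 48 of 206 stood above them. QuantSeq gives about 1 read per messenger, so CPM was not divided by length. *Rps23-ps2*, a copy of a small-subunit ribosomal protein gene, was at a mean of 493 CPM over the 14 libraries and *Rps23* at 48.1 CPM. *Rpl31-ps8* was at 489 CPM and *Rpl31* at 39.5 CPM. *Rps13-ps2* was at 446 CPM and *Rps13* at 10.4 CPM. These 3 copies, whose parents encode ribosomal proteins of both subunits, each held over 10 times the counts of the parent. *Rps16-ps2* was at 338 CPM against 15.8 CPM of *Rps16*. *Rps6-ps3* was at 334 CPM against 74.0 CPM of *Rps6*, a target of the S6 kinases, and *Rpl10-ps3* at 268 CPM against 16.4 CPM of *Rpl10*. *Rpl31-ps8*, *Rps13-ps2* and *Rps16-ps2* were identical to their parents over the aligned bases. *Rps26-ps1* was at 259 CPM against 156 CPM of *Rps26*. *Ndufb1-ps*, which is named after a subunit of respiratory complex I and has no parent in the annotation, was at 264 CPM. In all, 14 copies had more than 10 times the mean CPM of the parent and for 81 the parent had more than 10 times that of the copy.

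**Figure D1:**
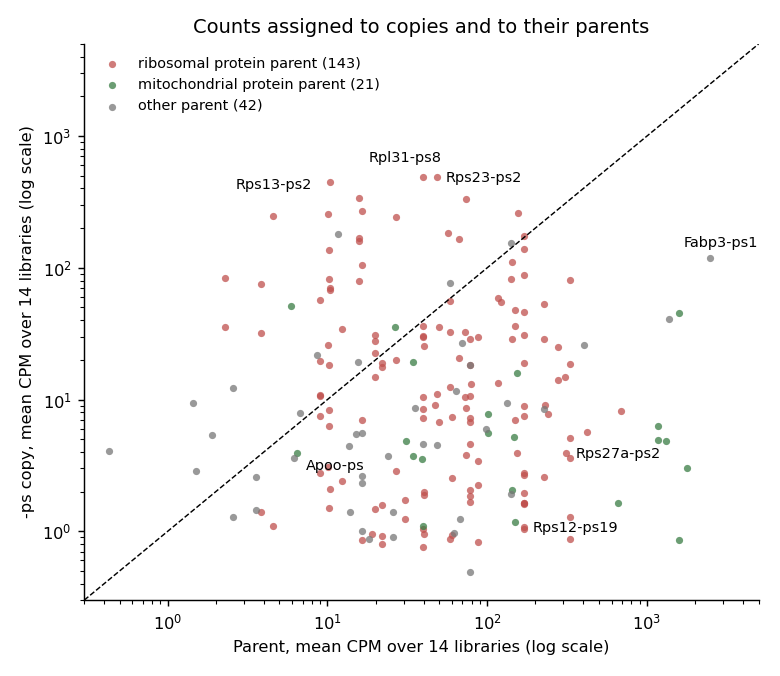
Mean CPM over 14 libraries of each copy (y axis, log scale) against its parent (x axis, log scale), with 1 point per pair, 206 in all, and equality dashed. The 48 points above the dashed line are copies counted above their parents, *Rps13-ps2* and *Rps23-ps2* among them, and *Fabp3-ps1* lies far below it.

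By role, 143 of the 224 copies come from genes of cytosolic ribosomal proteins, 23 from genes of mitochondrial proteins and 58 from others. The median of the copies' mean level was 10.9, 4.89 and 4.97 CPM in these classes. On the log2 scale the median of copy over parent was −2.14 for ribosomal copies, −4.81 for mitochondrial ones and −2.27 for the others. Of 21 mitochondrial copies with a parent, 2 stood above it. They were *Mrpl23-ps1*, at 51.7 CPM against 5.94 CPM of the mitochondrial ribosomal protein gene *Mrpl23*, and *Dnajc19-ps*, at 35.3 CPM against 26.5 CPM of *Dnajc19*, whose protein lies at the inner mitochondrial membrane. Both were named after their values were seen. *Atp5l-ps1* was at 0.861 CPM and *Atp5l*, a subunit of ATP synthase, at 1582 CPM.

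The level relative to the parent was higher in copies more alike to it. The median log2 of copy over parent was 0.81 for the 20 identical copies, −0.66 for 61 copies at 99% to under 100% identity, −2.92 for 70 at 97% to under 99%, and −4.30 for 53 under 97%. Across the 204 copies, Spearman's rho between identity and this ratio was 0.48, and 0.37 between identity and mean CPM. These are descriptions across genes that share libraries and parents. The number of A among the last 30 bases of the copy had a rho of −0.03 with the ratio. Of copies that share no stretch of 86 bases with another gene, 14 had a parent, and 0 of those stood above it.

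**Figure D2:**
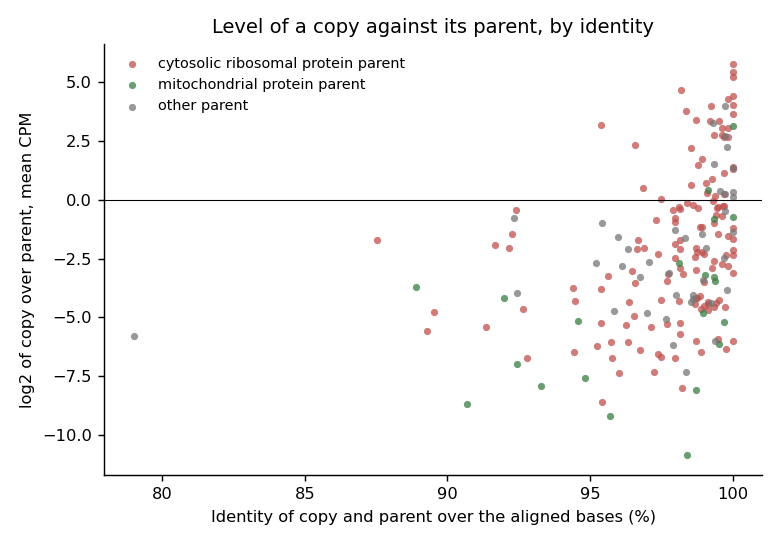
Log2 of copy over parent in mean CPM (y axis) against percent identity over the aligned bases (x axis), with 1 point for each of 204 pairs and colours for the class of the parent. Most points above 0 lie at 99% identity or more, where the medians are 0.81 and −0.66.

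By position, 29 copies lay within a gene on the same strand, 26 of them in introns only, and 57 overlapped a gene of the opposite strand. Of the 224, 24 were on the X chromosome. Just inside the count rule were *Tubb4b-ps1*, *Rpl31-ps10* and *Atp5l-ps1*, for which the fourth highest count was 10. Just outside were *Hmgb1-ps3*, *Rpl36-ps10* and *C4bp-ps1*, at 9. Counts of 10 or more in all 14 files were reached by 116 copies, and *Atp5l-ps1* met the rule through the YG8 libraries alone. Its choice thus favours higher levels in YG8, and it was not removed from the counts below.

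Families of 3 or more copies of a parent numbered 23. The largest was that of *Rps12*, with 16 copies, followed by *Rpl31* and *Rps19*, with 9 each. Summed over its copies, the *Rps12* family stood at 440 ± 85.6 CPM (SD, n = 4) in WT, 441 ± 81.1 CPM (n = 4) in YG8, 711 ± 126 CPM (n = 3) in KIKO-700 females and 573 ± 147 CPM (n = 3) in KIKO-700 males. *Rps12* itself was at 161 ± 17.4, 145 ± 42.0, 203 ± 31.7 and 181 ± 24.2 CPM in the same order. In the *Rps12* family the copies together exceeded the parent in every group. The *Rps19* copies summed to 51.7 ± 28.8 CPM in WT, 82.1 ± 15.5 CPM in YG8, 120 ± 24.3 CPM in KIKO-700 females and 83.2 ± 12.3 CPM in KIKO-700 males. WT 2 and WT 3 held 25.6 and 28.7 CPM of them, below each of the other 12 libraries. The 2 cohorts differ in genotype and in all that came with the cohort, which cannot be told apart, so levels across them were not tested.

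Together the 224 copies took 0.613% to 0.811% of a library's counts in WT, 0.699% to 1.06% in YG8, 0.925% to 1.14% in KIKO-700 females and 0.757% to 1.00% in KIKO-700 males. The 99 parents took 1.58% to 1.76%, 1.51% to 1.84%, 2.04% to 2.26% and 1.70% to 2.39%. The ranges of the copies' share overlapped between WT and YG8 and between KIKO-700 females and males, and so did those of the parents. Genes of mitochondrial DNA took 28.9% to 44.6% of the counts of a library.

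In hearts labelled YG8 most tested copies had higher levels than in hearts labelled WT, and the median difference of their parents was smaller. A low-count filter left 209 of the 224 copies. By edgeR, 46 of them (22.0%) were higher in YG8 at an unadjusted p under 0.05 and 0 were lower, where 3.04% of all 11875 tested genes were higher and 3.01% lower. Of the 116 copies with 10 or more counts in all 14 files, a set without *Atp5l-ps1*, 21 (18.1%) were higher and 0 were lower. The log2 fold change was above 0 in 167 of the 209, with a median of 0.61 beside −0.01 over all genes. None of the 209 passed an adjusted p under 0.05 by edgeR, where 0% of all genes did (smallest adjusted p of a copy 0.781), while DESeq2 called 1 and limma-voom 0. In 15 copies every YG8 library lay above every WT library, and in 0 below, where 1.52% and 2.14% of all genes did so. Nothing in the labels says which libraries share an animal or a preparation day, so p values measure the spread between these libraries.

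The medians were above 0 in every class of parent and of identity. In the ribosomal class 31 of 135 tested copies were higher, with a median log2 fold change of 0.61. In the mitochondrial class 8 of 22 were higher, with a median of 0.86, and in the other class 7 of 52, with a median of 0.46. The median was 0.33, 0.73, 0.66 and 0.59 in copies identical to the parent, at 99% to under 100%, at 97% to under 99% and under 97%. It was 0.40 in 17 tested copies that share no stretch of 86 bases with another gene. Across 190 copies Spearman's rho between identity and log2 fold change was −0.02. Of 603 tested processed pseudogenes that are not among the 224, 116 (19.2%) were higher and 2 lower, with a median of 0.67. Of 10511 other protein-coding genes 174 (1.66%) were higher, with a median of −0.03. In the 16 tested members of other biotypes, 0 were higher or lower and the median was 0.00.

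Copies counted above their parent had a median of 0.29 (7 of 48 higher), and those at or under it 0.71 (36 of 144 higher). The lowest levels were most often in WT 3 and WT 2. Of 209 copies, 74 had their lowest level in WT 3, 57 in WT 2, 33 in WT 1 and 8 in WT 4. Of 98 parents, 25 were lowest in WT 2, 24 in WT 1, 17 in YG8 1, 14 in WT 3 and 4 in WT 4. Relative to the WT mean, the median log2 level of the copies was 0.14, −0.34, −0.15 and 0.55 in WT 1 to WT 4 and 0.76, 0.67, 0.61 and 0.91 in YG8 1 to YG8 4. WT 4 thus lay close to the YG8 libraries, yet below each of them. WT 2 and WT 3 are the libraries with the low sum of ventricular markers given above. WT 3 also had the smallest total of all libraries, at 5226233 counts, and the most chosen copies without a count, at 16. Its share of mitochondrial DNA genes was the largest, at 44.6%, and it was the only WT library marked as male. WT 2, marked as female, had 10572032 counts, 5 copies without a count and a mitochondrial share of 34.6%. The part of any of these in the result was not tested.

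**Figure D3:**
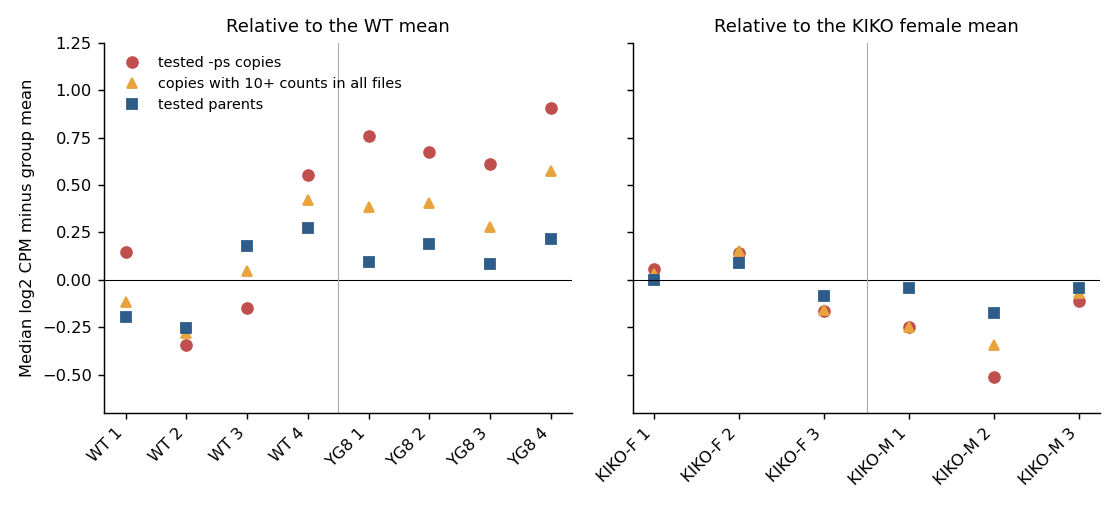
Median over genes of the log2 CPM in each library minus the mean of the reference group (y axis), for tested copies, copies with 10 or more counts in all files and tested parents. The left panel has WT and YG8 libraries and the right one KIKO-700 females and males, and the copies spread more widely than the parents, from −0.34 in WT 2 to 0.91 in YG8 4.

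Without WT 2 and WT 3, a setting chosen after seeing the data, 22 of 220 tested copies (10%) were higher and 1 was lower, where 2.96% of all genes were higher, and the median was 0.32. Without WT 4, 106 of 216 (49.1%) were higher, where 8.90% of all genes were. In that setting 22 copies passed the adjusted threshold, as did 146 of all 12276 tested genes. Left out singly, WT 1, WT 2, YG8 1 and YG8 4 each brought the number down, to 30, 29, 30 and 28.

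*Apoo-ps* had the smallest p. It is a copy, identical over 586 bases, of *Apoo*, whose protein belongs to the complex that shapes mitochondrial cristae. *Apoo-ps* stood at 11.03, 5.95, 2.95 and 6.60 CPM in YG8 1 to YG8 4 and at 1.24, 1.12, 0.211 and 2.76 CPM in WT 1 to WT 4 (here and below, CPM of single libraries are scaled by TMM within the experiment). Every YG8 library exceeded every WT library, the closest being YG8 3 and WT 4. Its log2 fold change was 2.28 (SE 0.52, edgeR adjusted p = 0.781). *Apoo* had 15.9, 10.6, 7.31 and 7.57 CPM in YG8 and 4.39, 7.56, 7.39 and 8.15 CPM in WT, which overlapped, with a log2 fold change of 0.60 (SE 0.32).

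*Rpl22-ps1*, a copy on the X chromosome (8038611 to 8038996) of the large-subunit gene *Rpl22*, is 92.7% identical to its parent and shares 2.33% of its 86-base stretches with it. It stood at 16.3, 17.2, 9.98 and 9.20 CPM in YG8 and at 4.49, 3.74, 5.70 and 7.71 CPM in WT, with no overlap. The log2 fold change was 1.30 (SE 0.32, edgeR adjusted p = 0.786). *Rpl22* was at 217, 238, 221 and 240.3 CPM in YG8 and 151, 215, 324 and 255 CPM in WT, a log2 fold change of −0.05 (SE 0.27). *Eif3s6-ps3* is named after an older symbol of a subunit of translation initiation factor eIF3, shares no stretch of 86 bases with another gene, and had 5.47, 4.99, 2.11 and 2.92 CPM in YG8 and 0.764, 1.42, 0.634 and 1.75 CPM in WT. Its groups did not overlap either, at a log2 fold change of 1.73 (SE 0.45).

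Of the mitochondrial copies, *Ndufab1-ps* comes from the gene of the mitochondrial acyl carrier protein, a subunit of complex I. It was at 31.2, 28.2, 19.7 and 28.0 CPM in YG8 and 11.3, 11.2, 5.70 and 20.5 CPM in WT, where YG8 3 and WT 4 overlapped (log2 fold change 1.13, SE 0.33). *Ndufab1* differed in the same direction and was higher before adjustment, with a log2 fold change of 0.68 (SE 0.26). *Mrps36-ps2*, a copy of a gene whose protein is known in the 2-oxoglutarate dehydrogenase complex, was at 9.28, 9.63, 4.36 and 7.46 CPM in YG8 and 1.24, 1.05, 0 and 4.66 CPM in WT. It was at 0 in WT 3, and YG8 3 overlapped with WT 4. Its log2 fold change was 2.14 (SE 0.66), and that of *Mrps36* was 0.34 (SE 0.26).

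The other 7 of the 12 copies with the smallest p were *Rpl30-ps9*, *Rpl36a-ps3*, *Rps13-ps5*, *Rpl21-ps6*, *Rps19-ps6*, *Rpl21-ps15* and *Rpl19-ps11*, all of ribosomal parents, with log2 fold changes from 0.98 to 2.42. *Rps19-ps6* was at 7.81, 7.49, 3.94 and 6.71 CPM in YG8 and 0.764, 0.374, 0 and 3.78 CPM in WT. *Rpl30-ps9*, of higher level, was at 50.2, 37.3, 23.2 and 25.6 CPM in YG8 and 11.9, 11.5, 18.8 and 22.4 CPM in WT. In both the groups did not overlap, narrowly so, since WT 4 lay just under YG8 3. All 12 had adjusted p values between 0.781 and 0.786 by edgeR. Without WT 4, *Apoo-ps*, *Rpl22-ps1*, *Ndufab1-ps*, *Rps19-ps6*, *Mrps36-ps2* and *Rpl19-ps11* passed the adjusted threshold, and without WT 2 and WT 3 none of the 12 did, with log2 fold changes from 0.52 to 1.78. Of all genes, 146 of 12276 passed it without WT 4 and 0 without WT 2 and WT 3.

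None of the 8 copies of highest level was higher or lower before adjustment. *Rps23-ps2* was at 752, 398, 393 and 581 CPM in YG8 and 244, 466, 372 and 542 CPM in WT, which overlapped. *Rps13-ps2* was at 303, 413, 360.0 and 407 CPM in YG8 and 287, 330.1, 602 and 439 CPM in WT, which overlapped too. The log2 fold changes of the 8 ran from −0.16 (*Rps13-ps2*, SE 0.28) to 0.83 (*Rps26-ps1*, SE 0.46). *Ndufb1-ps* ranged from 59.3 CPM in WT 1 to 702 CPM in YG8 2.

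Among families with 4 or more tested copies, all copies of *Rpl31* (8), *Rps19* (9), *Rpl21* (5), *Rps15a* (5), *Rpl10* (4) and *Rpsa* (4) had a log2 fold change above 0, with medians of 0.93, 1.07, 1.06, 0.78, 0.92 and 0.84. Before adjustment 0, 1, 2, 0, 2 and 0 of them were higher. The 15 tested copies of *Rps12* had a median of 0.06, with 9 above 0 and 6 below. For the 6 copies of *Rpl17* the median was −0.15, with 2 above 0 and 4 below. Of 6 copies of *Rpl35a*, 5 were above 0 (median 0.89), of 4 of *Rps13*, 2 (median 0.40), and of 4 of *Hmgb1*, 3 (median 0.49).

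**Figure D4:**
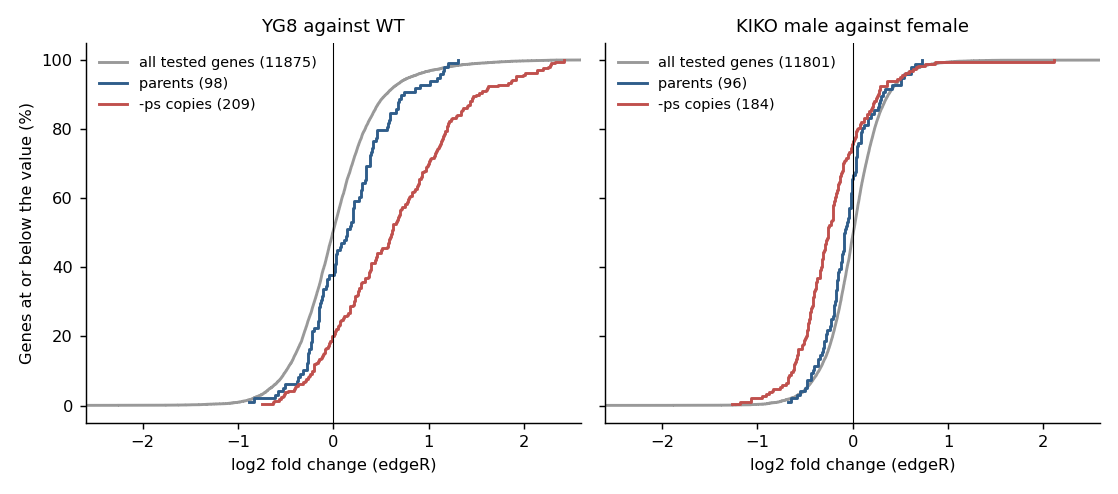
Percent of genes (y axis) with a log2 fold change at or below the value on the x axis, for copies, parents and all tested genes, in YG8 against WT (left) and KIKO-700 males against females (right). The curve of the copies lies to the right of the others in the left panel, with a median of 0.61, and to the left of them in the right panel, with a median of −0.26.

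Parents differed less. Of 98 tested, 9 (9.18%) were higher before adjustment and 3 (3.06%) were lower, where 3.04% and 3.01% of all genes were. The share of lower parents was thus near that of all genes. Their median on the log2 scale was 0.14, and 0 passed the adjusted threshold by edgeR. *Rpl31*, with a log2 fold change of −0.83 (SE 0.35), was one of the 3 lower. It had 18.9, 39.5, 25.6 and 24.1 CPM in YG8 and 31.0, 36.1, 87.9 and 38.3 CPM in WT, where WT 3 was the highest. When the counts of all copies were added to their parent before the fit, 0 parents were lower, and *Rpl31* had a log2 fold change of 0.31 (SE 0.27). In that fit the parents higher before adjustment were *Rpl23a*, *Rpl30*, *Apoo*, *Tma7*, *Ndufab1*, *Dnajc19*, *Rpl21*, *Rps18*, *Rps2*, *Mrps36* and *Rpl19*. Of these, *Rpl30*, *Apoo*, *Ndufab1* and *Mrps36* were at log2 fold changes of 1.06, 1.06, 0.73 and 0.59. Of all 11684 genes in it, 329 were higher and 0 passed the adjusted threshold.

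Within a library, the level of a copy relative to its parent tells whether the pair moved together. In 191 pairs with both genes tested, the copy's fold change exceeded the parent's in 131. The median difference between YG8 and WT of the log2 ratio of copy to parent was 0.46, and without WT 2 and WT 3 it was 0.19. Ratios of YG8 lay above those of WT without overlap in 16 pairs and below in 2. For a pair with exchangeable libraries, the probability of such separation in either direction is 0.0286. Pairs share libraries and parents, so these counts were not tested. The exact permutation test of 4 against 4 libraries cannot give a two-sided p under 0.0286.

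Of the 6 pairs with the largest difference, the 5 given here were all low in WT 2 and WT 3. *Fabp3-ps1* is a copy of *Fabp3*, the fatty acid-binding protein of heart muscle. It stood at 255, 174, 95.3 and 153 CPM in YG8 and 20.8, 1.80, 1.06 and 156 CPM in WT. WT 2 and WT 3 were lowest and WT 4 lay within the YG8 range. *Fabp3* itself ranged from 1797 to 3047 CPM over the 8 libraries, with a log2 fold change of 0.18 (SE 0.28). The log2 ratio of copy to parent was −3.34, −3.36, −4.69 and −4.31 in YG8 and −6.66, −9.84, −10.77 and −4.02 in WT. The difference was 3.896 (two-sided exact permutation p = 0.0857), and it was 1.41 without WT 2 and WT 3.

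*Rpl31* encodes a large-subunit protein. *Rpl31-ps4*, 91.7% identical to it, was at 29.7, 10.5, 10.7 and 14.5 CPM in YG8 and 2.20, 0, 0 and 12.9 CPM in WT. It was not counted in WT 2 and WT 3. Its difference in log2 ratio was 4.48 (exact permutation p = 0.0571), which rests on the prior count in these 2 libraries. *Rpl18-ps2*, *Rpl31-ps14* and *Rpsa-ps2* had differences of 3.10, 2.87 and 2.80, with exact permutation p of 0.0286, 0.0857 and 0.0857. In these 5 pairs WT 2 and WT 3 had the lowest ratios of the 8 libraries and WT 4 the highest of the WT libraries. The 5 were chosen as among the largest of 191 pairs, so their p values are not evidence about the set, and without WT 2 and WT 3 the differences were 0.75 to 1.81 with exact permutation p of 0.133 to 0.40, where 4 against 2 libraries cannot go lower than 0.133.

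**Figure D5:**
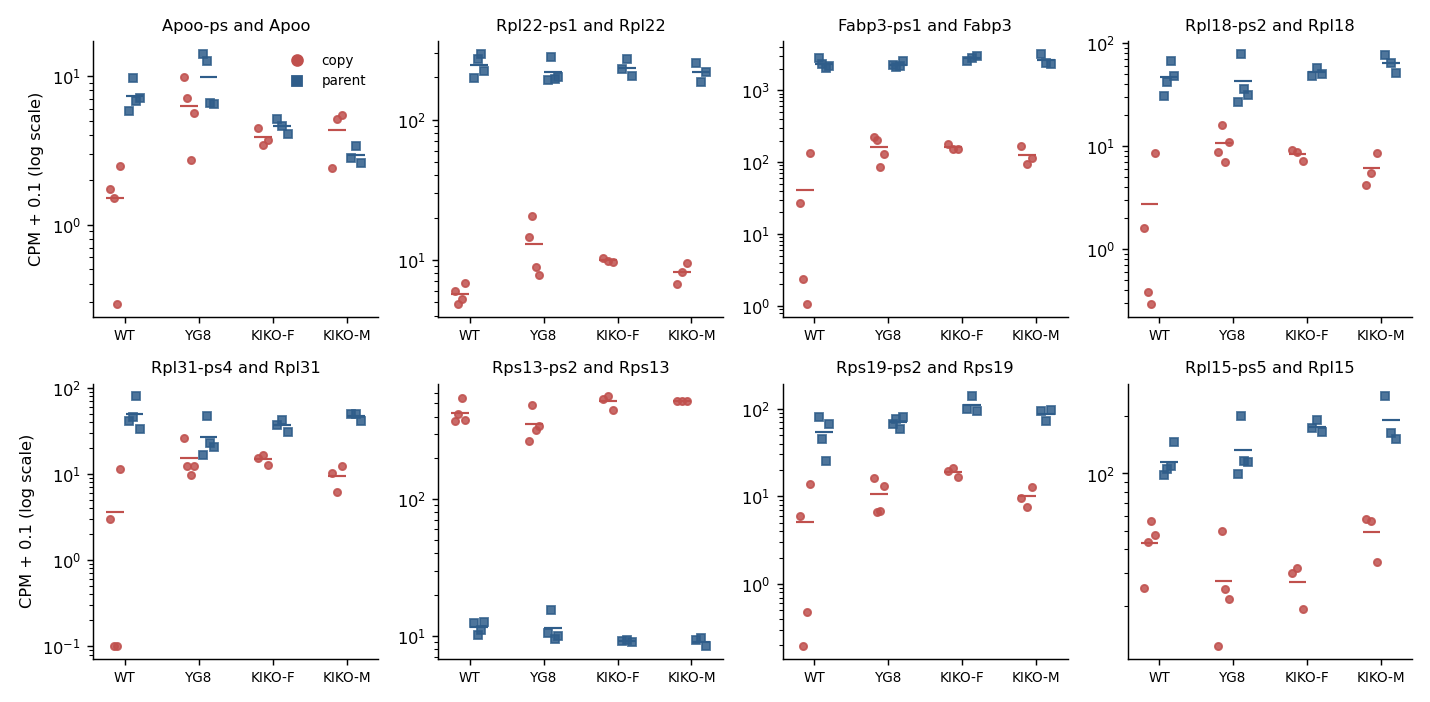
CPM plus 0.1 (y axis, log scale) of 8 copies and their parents in each library of the 4 groups, with points for libraries and lines for arithmetic group means, scaled by library size alone. *Fabp3-ps1*, *Rpl18-ps2* and *Rpl31-ps4* spread over more than 1 log10 unit in WT, while their parents do not.

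KIKO-700 males were compared with KIKO-700 females, a comparison of sex within the model. Most tested copies had lower levels in males. After the filter 184 of the 224 were tested, and by edgeR 37 (20.1%) were lower and 5 (2.72%) higher with p under 0.05 before adjustment, where 3.75% of all 11801 tested genes were lower and 3.39% higher. The log2 fold change was below 0 in 139, with a median of −0.26 beside 0.01 over all genes. None of the 184 passed the adjusted threshold by edgeR (smallest adjusted p 0.288), where 0.0678% of all genes did, nor did any by DESeq2 or limma-voom. In 32 copies every male library lay below every female library and in 5 above, where 7.13% and 5.52% of all genes did so.

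By class, 31 of 121 ribosomal copies were lower and 3 higher, with a median of −0.29. Of 17 mitochondrial copies 1 was lower, with a median of −0.29, and of 46 others 5 were lower and 2 higher, with a median of −0.12. The medians by identity were −0.20, −0.29, −0.30 and −0.26, from identical copies to those under 97%. On the X chromosome 5 of 19 copies were lower and 1 higher, with a median of −0.26, and on autosomes 32 of 165 and 4, also with a median of −0.26. Other processed pseudogenes were lower in 104 of 502 (20.7%), with a median of −0.29.

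Here too the low levels lay in few libraries. Of 184 copies, 93 were lowest in male 2 and 57 in male 1. Male 3 had the lowest level of 4. Relative to the female mean, the median log2 level was −0.25, −0.51 and −0.11 in males 1 to 3 and 0.06, 0.14 and −0.16 in females 1 to 3, so male 3 lay within the female range. Without male 2, 16 of 189 copies (8.47%) were lower, where 1.83% of all genes were, and the median was −0.15. Without female 2, 12 of 190 (6.32%) were lower, and without female 1, 24 of 191 (12.6%), where 1.85% and 2.52% of all genes were. Without male 1, 68 of 192 (35.4%) were lower and 20 (10.4%) higher, where 10.4% and 10.9% of all genes were. In that setting 36 copies passed the adjusted threshold, as did 864 of all 12245 tested genes, beside 8 of all genes in the main fit. The number of higher copies was 3 without female 1, male 2 or male 3, where 2.67%, 1.93% and 3.79% of all genes were higher. Sums of ventricular markers in male 1 to male 3 were 32182, 26204 and 22542 CPM, and those of females ran from 26869 to 28289 CPM.

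*Amd-ps1*, on the X chromosome (155155195 to 155156188), had the smallest p. It is named after S-adenosylmethionine decarboxylase, an enzyme of polyamine synthesis, and no gene of that symbol was found. It was at 1.75, 3.87 and 2.17 CPM in males 1 to 3 and 0.377, 0.821 and 0.534 CPM in females 1 to 3, a log2 fold change of 2.11 (SE 0.46, edgeR adjusted p = 0.288). It went against the direction of most copies, as did *Rpl15-ps5*. The latter stood at 53.5, 56.6 and 36.8 CPM in males and 29.9, 31.2 and 19.2 CPM in females, a log2 fold change of 0.86 (SE 0.21), and *Rpl15* had 0.10 (SE 0.17). *Nutf2-ps1*, listed as protein-coding and named after nuclear transport factor 2, was at 26.8 ± 3.52 CPM in males (mean ± SD, n = 3) and 16.8 ± 1.75 CPM in females, with every male above every female. It was higher before adjustment together with *Nutf2*, at log2 fold changes of 0.67 (SE 0.17) and 0.65 (SE 0.22). The 2 genes are identical over 868 bases.

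The other 9 of the 12 smallest p values belonged to lower copies. *Rps19-ps2* was at 8.75, 7.60 and 13.5 CPM in males and 19.6, 20.7 and 16.7 CPM in females, without overlap. Its log2 fold change was −0.91 (SE 0.22, edgeR adjusted p = 0.336), and that of *Rps19* was −0.34 (SE 0.19). *Rpsa-ps2*, a copy of the gene of a small-subunit protein also known as the laminin receptor, was at 12.8, 8.30 and 11.9 CPM in males and 20.9, 22.5 and 15.4 CPM in females (log2 fold change −0.83, SE 0.21). The groups did not overlap in either. *Rpl38-ps2*, identical to its parent over 213 bases and of higher level, was at 160.3, 105 and 167 CPM in males and 228, 232 and 197 CPM in females (log2 fold change −0.60, SE 0.19). *Rpl3-ps1*, *Rps13-ps4*, *Rpl10-ps1*, *Rpl35a-ps6*, *Rps19-ps7* and *Mrps36-ps1* had log2 fold changes from −0.76 to −0.52, also with every male below every female. Without male 1, 11 of the 12 passed the adjusted threshold, *Rps19-ps7* being the exception, and without male 2 none did. Of all genes, 864 of 12245 passed it without male 1 and 4 of 12208 without male 2.

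Of the 8 copies of highest level, *Rps23-ps2* and *Rps26-ps1* were lower before adjustment. *Rps23-ps2* was at 484, 354 and 522 CPM in males and 559, 743 and 556 CPM in females, and *Rps23* had a log2 fold change of −0.55 (SE 0.20) beside −0.45 (SE 0.18) of the copy. Copy and parent were both lower before adjustment, and their log2 ratio differed by 0.10 between the sexes. All 9 tested copies of *Rps19*, 7 of *Rpl31*, 5 of *Rpl21* and 4 of *Rps15a* had a log2 fold change below 0, with medians of −0.58, −0.47, −0.39 and −0.63. Of 14 copies of *Rps12*, 3 were above 0 (median −0.23), of 5 of *Rpl17*, 3 (median 0.04), of 6 of *Rpl35a*, 1 (median −0.39), and of 4 of *Rps13*, 2 (median −0.09).

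Among 96 tested parents 12 were lower before adjustment and 5 were higher, with a median of −0.08, and 0 passed the adjusted threshold by edgeR. The 12 are 12.5% of the parents, where 3.75% of all genes were lower. Of 47 tested parents of cytosolic ribosomal proteins 10 were lower and 1 higher, and of 49 others 2 were lower and 4 higher. In 166 pairs with both tested, the copy's fold change exceeded the parent's in 62, and the median difference of the log2 ratio was −0.20. Ratios of males lay below those of females without overlap in 45 pairs and above in 9. With exchangeable libraries the probability of such separation in either direction is 0.10 for a pair, and these counts were not tested either. With 3 libraries a group the exact permutation test cannot give a two-sided p under 0.10.

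The 6 pairs with the largest difference were *Rpl7a-ps11*, *Rpl10-ps1*, *Rpl31-ps17*, *Rps12-ps19*, *Rps27a-ps2* and *Rpl31-ps4*, at −1.91, −1.24, −1.18, −1.10, 1.04 and −1.03. *Rpl10-ps1*, identical to *Rpl10* over 645 bases, had log2 ratios of −0.70, −1.91 and −1.10 in males and 0.26, 0.07 and −0.31 in females. The copy was lower and *Rpl10*, on the log2 scale, differed by 0.50 (SE 0.21), so that copy and parent differed in opposite directions. *Rps27a-ps2*, a copy of a small-subunit gene, was at 2.13, 5.12 and 3.76 CPM in males and 2.77, 3.29 and 1.34 CPM in females. *Rps27a* was lower in males, with a log2 fold change of −0.50 (SE 0.18). Exact permutation gave p = 0.10 for 5 of these pairs, the smallest it allows, and 0.20 for *Rpl7a-ps11*, which had 0 to 2.26 CPM.

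The order of copy and parent can be followed across the 4 groups side by side. In CPM of library size alone, *Rps13-ps2* was at 429 ± 79.6 in WT, 353 ± 93.9 in YG8, 518 ± 59.7 in KIKO-700 females and 521 ± 2.81 in KIKO-700 males (mean ± SD, n = 4, 4, 3 and 3). *Rps13* was at 11.5 ± 1.22, 11.2 ± 2.73, 9.07 ± 0.126 and 8.97 ± 0.616 in the same order. The copy exceeded the parent in each group. *Rps26-ps1* was at 158 ± 62.8 in WT, 233 ± 103 in YG8, 398 ± 71.7 in KIKO-700 females and 288 ± 52.9 in KIKO-700 males, and *Rps26* at 169.9 ± 12.6, 158 ± 41.4, 145 ± 14.3 and 147 ± 3.33. In WT the difference was within the spread, with the copy above the parent in WT 1 and WT 4 and below it in WT 2 and WT 3. *Ndufb1-ps* was at 319 ± 185 in WT, 426 ± 276 in YG8, 116 ± 24.4 in KIKO-700 females and 123 ± 43.0 in KIKO-700 males.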

How the data were processed

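Hearts of WT, YG8 and KIKO-700 mice were analysed as whole-number read counts per gene, 1 deposited file per library. Per the labels' processing notes the authors used STAR 2.5.0a, HTSeq 0.6.1 and GRCm38.p6, whereas the methods of the study name other tools, and the difference was not resolved. How reads that match several places were counted is not given in the sources used here. Of the gene IDs, 54409 (99.8%) matched GENCODE M21 and 123 did not. Members and gene lists were chosen with earlier results of these data known. The targeted gene and 1 copy with its parent are not reported here.

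Counts were normalised by TMM, filtered with filterByExpr in each comparison and tested by quasi-likelihood F-tests in edgeR 4.0.16 (R 4.3.3) on the libraries of the compared groups, with Benjamini-Hochberg adjustment over all tested genes and a threshold of 0.05. Ratios of copy to parent were compared by exact permutation, two-sided, on log2 CPM with a prior count of 2. Copies were aligned locally to the parent's GENCODE transcripts. The code was tested on simulated data. Totals of 5226233 to 11650840 counts per library limit the precision of low copies. Alternatives were DESeq2 1.42.0, limma-voom 3.58.1, other scalings, other filters, each library left out, a replicate block and copies added to parents. Named were, in each comparison, up to 12 copies with the smallest p under 0.05 before adjustment and the 6 pairs with the largest difference in ratio, the 8 copies of highest mean CPM, and the 3 on each side of the count rule, with their parents. Other names were chosen after their values were seen.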

Additional observations from a re-analysis of the deposited data

Results flagged for a closer look

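Among 88 sets of 4 libraries examined for a library far from the rest, 2 (2.27%) had one, where chance gives about 1 in 20. For *Rpl18-ps2* it was WT 4, with 8.44 CPM, whereas the lowest WT library held 0.191 CPM and the gap to the next library spanned 0.841 of the range. For *Rps6-ps3* it was WT 2, with 344 CPM, whereas the remaining WT libraries held between 282 and 292 CPM.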

How the results depend on the processing

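For YG8 against WT, 46 copies were higher. The number was 29 with library size alone, 78 with no low-count filter, 24 with 10 or more counts in every library, 94 by limma-voom, 21 for copies with 10 or more counts in all 14 files (a filter that drops copies near 0 in either group), 22 without WT 2 and WT 3 (chosen after seeing the data), and 28 to 106 with each library left out. Of all genes, 1.44%, 3.86%, 2.76% and 5.99% were higher in the first 4 of these settings. The share was 2.96% without WT 2 and WT 3 and 1.86% to 8.90% with each library left out. The 0 lower copies became 1, 3 and 1 with library size alone, no filter and without WT 2 and WT 3, and 0 to 5 with each library left out. The 0 copies past the adjusted threshold by edgeR became 16 with no filter, 1 by DESeq2 and 0 to 22 with each library left out. Of all genes, 107, 7 and 0 to 146 passed it in the same order. The median of 0.61 was 0.32 both with 10 or more counts in every library and without WT 2 and WT 3. Of parents, 9 were higher, and 5, 15, 15, 17 and 4 were with library size alone, no filter, DESeq2, limma-voom and without WT 2 and WT 3, and 5 to 25 with each library left out. With copies added to parents some were higher too, as given above. The 3 lower parents became 5 with library size alone, 0 without WT 2 and WT 3, 0 with copies added, and 1 to 4 with each library left out, and the 0 past the adjusted threshold by edgeR became 3 with no filter and 0 to 3. With library size alone the parents' median turned to −0.03 while that of all genes was −0.21. For KIKO-700 males against females, the 5 higher and 37 lower copies became 12 and 56 with no filter, 3 to 20 and 12 to 68 with each library left out, and 20 were lower among copies with 10 or more counts in all 14 files. Of all genes, 3.46% were higher and 2.89% lower with no filter. With each library left out these shares ran from 1.93% to 10.9% and from 1.83% to 10.4%. The 0 past the adjusted threshold became 5 with no filter and 0 to 36, where 105 and 4 to 864 of all genes passed it. Parents gave 2 to 12 higher, 3 to 22 lower and 0 to 10 past the adjusted threshold with each library left out, and 1 past it with no filter. The cause of these changes was not tested. Over 609 alternatives of 47 named results, 0 changed sign. These 47 were chosen for a small p or a large difference in these same data. A change of sign was thus unlikely from the start, and the 0 is no evidence of robustness.

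Deviations of libraries of the same replicate number had correlations of −0.23, 0.25, −0.03 and 0.13 for WT and YG8, and of −0.16, −0.04 and −0.19 for KIKO-700. So few pairs cannot tell whether libraries of the same number share an animal or a preparation. With the replicate number as a block, 79 copies and 16 parents were higher in YG8, where 5.04% of all genes were. In KIKO-700 males 4 copies were then higher and 34 lower, where 2.36% and 2.96% of all genes were. Low depth limits the copies near the count rule.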
